A study of Mus musculus with 3 samples.

Results

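Collagen chain genes were taken as every gene whose symbol is Col, a number, the letter a and a number, which gave 44 of the 31053 features of the deposited matrices. They comprised 11 fibrillar chains, 9 FACIT chains (fibril-associated collagens with interrupted triple helices), 9 basement membrane chains, 9 network chains, 4 transmembrane chains and 2 others, Col26a1 and Col28a1. Their levels were followed across the cell types of mouse dorsal skin in 3 single-cell RNA libraries, 1 library per group. The knockout library came from 2.5-month-old mice that carried R26-CAG-CreER with floxed alleles of Yap1 and Wwtr1, the genes for the transcriptional coactivators YAP and TAZ, and that had received tamoxifen at 0.11 mg per g body weight by gavage on 2 days a week for 4 weeks. The old control library came from untreated wild-type mice aged 24 months. The young control library came from 2.5-month-old mice with the same floxed alleles and the same tamoxifen but without CreER. The CAG promoter is active in all tissues, so the deletion was not restricted to fibroblasts or to any other skin cell. The number of animals behind a library is not given in the labels. The old control differs from the young control in its alleles and in tamoxifen as well as in age. With 1 library per group there is no replicate error and no test, so the intervals below cover counting error only.

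Collagens are built from 3 chains wound into a triple helix, which needs a glycine after each pair of other amino acids along the chain. Fibrillar collagens assemble into the banded fibrils that carry tension in the dermis, of which types I and III are the bulk and type V starts the fibril. FACITs sit on the fibril surface, type VI forms beaded filaments around cells, and type IV forms the sheet of basement membranes, where type VII anchors the epidermis to the dermis. Fibroblasts are the main source of dermal collagen. The skin was dissociated with collagenase, an enzyme that cuts the collagen protein, and the measurements are of the chain mRNAs and not of that protein.

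The repeat can be read from the genes. In Col1a2 and Col3a1, which give the second chain of type I and the single chain of type III, coding exon 8 of 52 (chr6:4515481-4515534, plus strand) and coding exon 6 of 51 (chr1:45325360-45325413, plus strand) each hold 54 bases. Capitals mark the 6 of 18 codons that start with GG and encode glycine, and the sequences are from GENCODE M21 transcripts on GRCm38.
Col1a2 exon: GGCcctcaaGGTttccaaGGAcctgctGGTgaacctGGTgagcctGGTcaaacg
Col3a1 exon: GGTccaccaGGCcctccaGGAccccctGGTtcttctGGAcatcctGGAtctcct
Of the 2005 coding exons of the 44 chain genes, 469 were exactly 54 bases long, or 23.4%, against 0.441% of the coding exons of the 22560 other protein-coding genes. Exon lengths that are a multiple of 9 made up 61.8% of the chains' exons and 14.0% of the others'. The share of exons with 54 bases was 47.0% in the fibrillar chains, 25.2% in the FACITs, 7.59% in the network chains and 4.44% in the basement membrane chains. The longest unbroken repeat of a GGN codon followed by any 2 other codons had a median of 338 units in the 11 fibrillar genes, with 216 in Col24a1 and 217 in Col27a1 as the shortest and 344 in Col3a1 as the longest. It had a median of 57 units in FACITs and 42 in basement membrane chains. Col4a1 had 22 separate repeats of at least 5 units, the longest of 40. Within the fibrillar class, Col24a1 and Col27a1, with the shortest repeats, had the highest shares of 54-base exons, 55% and 54.1%, and Col1a1, with 338 units, the lowest, 41.2%. Col14a1, a FACIT, had no repeat over 32 units.

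**Figure D1:**
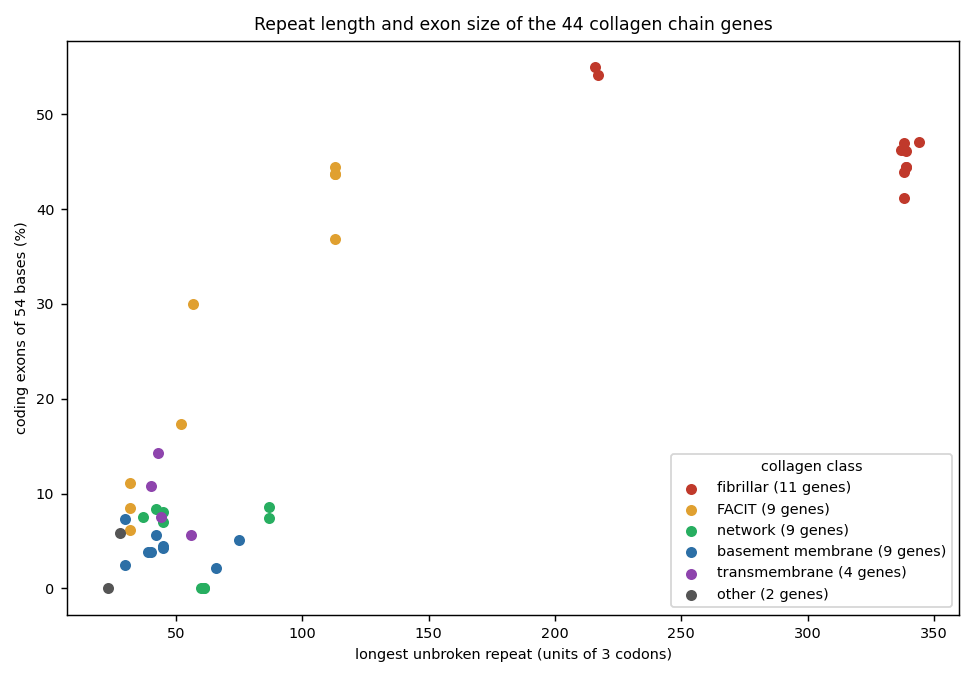
Each point is 1 of the 44 collagen chain genes, coloured by class, with the longest unbroken repeat in units of 3 codons on the x axis and the percent of coding exons that are 54 bases long on the y axis. The 11 fibrillar genes lie between 216 and 344 units, and no gene of another class passes 113 units.

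Several chain genes neighbour each other in the genome, and 3 pairs of type IV chains start head to head. Col4a1 (chr8:11198423-11312826, minus strand) and Col4a2 (chr8:11312805-11449287, plus strand) overlap by 22 bases at their starts. Col4a4 and Col4a3 on chromosome 1 lie 71 bases apart, and Col4a6 and Col4a5 on chromosome X lie 1308 bases apart. Col3a1 and Col5a2 end 24.6 kb from each other on chromosome 1. The promoter windows of Col4a1 and Col4a2 are printed because the levels of both chains are compared below as partners of 1 trimer. Each window runs from 250 bases before to 50 after the start, in the direction of its own gene, taken from RefSeq on GRCm38.p6, and the capitals mark the 78 bases that lie in both windows, read from opposite strands.
Col4a1 promoter (chr8:11312777-11313076, minus strand): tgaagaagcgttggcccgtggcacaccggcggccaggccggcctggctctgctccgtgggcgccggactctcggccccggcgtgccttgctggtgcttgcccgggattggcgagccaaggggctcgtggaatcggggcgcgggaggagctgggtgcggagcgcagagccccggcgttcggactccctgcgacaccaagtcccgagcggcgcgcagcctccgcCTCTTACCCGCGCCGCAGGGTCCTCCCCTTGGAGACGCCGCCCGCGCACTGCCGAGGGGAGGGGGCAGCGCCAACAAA
Col4a2 promoter (chr8:11312555-11312854, plus strand): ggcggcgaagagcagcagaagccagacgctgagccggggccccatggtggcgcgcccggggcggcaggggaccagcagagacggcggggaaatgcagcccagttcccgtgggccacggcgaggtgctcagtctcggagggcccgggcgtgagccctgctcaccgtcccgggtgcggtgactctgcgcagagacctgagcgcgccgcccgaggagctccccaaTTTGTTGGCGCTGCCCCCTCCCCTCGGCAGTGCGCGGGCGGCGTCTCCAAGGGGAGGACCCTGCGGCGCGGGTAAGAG
The windows of Col1a2 and Col3a1 are printed because both mRNAs were among the 3 most abundant chains and were lower in both other libraries than in the young control. Capitals mark the letters TATAAA and CCAAT on either strand. The starts of Col1a2 differ between sources. GENCODE M21 begins the gene at chr6:4504814, so the printed RefSeq window lies inside the gene as annotated there.
Col1a2 promoter (chr6:4505368-4505667, plus strand): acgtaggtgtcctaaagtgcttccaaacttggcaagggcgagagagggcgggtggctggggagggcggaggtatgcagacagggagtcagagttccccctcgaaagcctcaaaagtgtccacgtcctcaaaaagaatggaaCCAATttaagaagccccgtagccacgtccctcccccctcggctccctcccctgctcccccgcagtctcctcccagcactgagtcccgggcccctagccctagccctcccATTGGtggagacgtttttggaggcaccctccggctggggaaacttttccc
Col3a1 promoter (chr1:45311288-45311587, plus strand): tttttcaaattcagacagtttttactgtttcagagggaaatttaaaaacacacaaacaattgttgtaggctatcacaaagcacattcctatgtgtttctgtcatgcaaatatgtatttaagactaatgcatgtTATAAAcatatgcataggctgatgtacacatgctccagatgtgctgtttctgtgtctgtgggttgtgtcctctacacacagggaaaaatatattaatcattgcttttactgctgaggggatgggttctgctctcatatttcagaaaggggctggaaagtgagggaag
The RefSeq table matched 35 of the 44 chain genes, without Col1a1, Col2a1, Col4a3, Col5a2, Col9a3, Col12a1, Col14a1, Col22a1 and Col26a1. Windows of the same 300 bases of 27025 genes served for comparison, and both strands were searched. GGGCGG, the GC box, was in 22 of the 35 chain windows (62.9%) and in 38.2% of all windows, TATAAA in 5 (14.3%) and 15.7%, and CCAAT in 13 (37.1%) and 41.1%. GGAATG, the core letters of the motif of TEAD factors, through which YAP and TAZ are known to reach DNA, was in 5 windows (14.3%), those of Col18a1, Col20a1, Col3a1, Col4a6 and Col6a2, and in 16.6% of all windows. A match to such letters describes the window and shows no binding.

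The libraries held 25348 (knockout), 22108 (old control) and 15290 (young control) barcodes with 57767761, 52579262 and 95274423 UMIs, the unique molecular identifiers that count mRNA molecules read near their 3' end. After filtering, 8667, 11162 and 10799 cells were kept in that order. Mitochondrial reads differed before filtering, with a median per barcode of 18.6% in the knockout, 9.41% in the old control and 5.58% in the young control. Cells were clustered without any collagen chain and named from marker genes, none of them a collagen, so that chain levels did not define the classes. Fibroblast-like cells numbered 188 in the knockout, 519 in the old control and 2598 in the young control. All 10 fibroblast markers were detected in these cells in every library, and their summed level was 20739 CPM (UMIs of a gene per 1000000 UMIs of the class) in the knockout, 37450 CPM in the old control and 30718 CPM in the young control. Wwtr1 stood at 26.1 CPM in knockout fibroblast-like cells, against 121 in the old control and 127 in the young control, a knockout over young control ratio of 0.206. Yap1 stood at 51.3, 51.0 and 59.1 CPM in the same order, and whether 3' reads cover its deleted exons is not given in the labels. Cells of unnamed clusters made up 53.5% of cells in the knockout, 42% in the old control and 8.57% in the young control. By Xist and Ddx3y, the knockout library came from male and both control libraries from female cells, which cannot be told apart from genotype here.

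Of all UMIs in the kept cells, the 44 chain genes took 0.464% in the knockout, 0.326% in the old control and 1.48% in the young control. Fibroblast-like cells held 25.6% of the chain UMIs in the knockout, 34.7% in the old control and 83.5% in the young control. Schwann-like cells, the glia of skin nerves, held 17.6%, 3.83% and 1.57% in that order, and cells like dermal papilla or sheath, the mesenchyme of the hair follicle, held 6.69%, 13.1% and 1.91%. The shares moved with the numbers of cells captured: fibroblast-like cells were 2.17% of the kept cells in the knockout, 4.65% in the old control and 24.1% in the young control. Levels within a class, in CPM, are therefore used from here on. Some classes drew on different clusters in each library, and differences between libraries within them are between those clusters as well. Schwann-like cells were 1025 of 1301 from cluster 9 in the knockout, 491 of 600 from cluster 19 in the old control, and 298 and 249 of 656 from clusters 21 and 29 in the young control. Sebocyte-like cells were 1160 of 1173 from cluster 6 in the knockout, and 814 of 815 (old control) and 197 of 200 (young control) from cluster 10. Smooth muscle-like cells were 811 of 815 (knockout) and 62 of 76 (young control) from cluster 14 and 289 of 313 (old control) from cluster 28. Vascular endothelial-like cells were 73 of 91 (knockout) and 567 of 635 (young control) from cluster 17 and 244 of 356 (old control) from cluster 27. Dermal papilla or sheath-like cells came from cluster 3, with 99 in the knockout. Cluster 12 shared its leading genes Crabp1, Slc26a7 and Dkk2 but was nearest to the smooth muscle markers and stayed unnamed. It held 1005 knockout, 2 old control and 0 young control cells, which the dermal papilla or sheath values leave out.

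Free RNA in droplets gives collagen UMIs to cells that do not make collagen. Among lymphoid-like cells (T, NK or innate), Col1a1 was at 51.8 CPM in the knockout, 132 in the old control and 423 in the young control. At 1500 UMIs per cell, a Col1a1 UMI was seen in 9.21% of these lymphoid cells in the knockout, 9.04% in the old control and 44.3% in the young control, and in 92.4%, 90.5% and 98.2% of fibroblast-like cells. Without thinning, the lymphoid shares were 17.1%, 18.9% and 62.9% at median depths of 4070, 3552 and 2878 UMIs, and the fibroblast shares 99.5%, 96.1% and 99.4%. Thinning left out 4, 88 and 93 shallower fibroblast-like cells and 0, 70 and 89 lymphoid cells. A chain was therefore counted as above free RNA in a class when the lower bound of its level lay above the upper bound in the lymphoid cells of the same library and its level was at least 20 CPM. Of the 44 chains, 29 met this in at least 1 class in at least 2 libraries, against 20.5% of all 31053 features. These were 7 of 11 fibrillar, 3 of 9 FACIT, 8 of 9 basement membrane, 7 of 9 network and 3 of 4 transmembrane chains, and Col28a1. The rule makes no allowance for depth per cell. Median UMIs of Schwann-like, sebocyte-like and lymphoid cells were 1934, 2065 and 4070 in the knockout. They were 1533, 1962 and 3552 in the old control and 2498, 10783 and 2878 in the young control. The part of depth in what passed the rule was not tested. Passing the rule does not show that a class makes the chain. Macrophage or monocyte-like cells of the young control passed for 4 chains, Col1a1, Col1a2, Col3a1 and Col5a2, against 4.71% of all features. Their Col1a1, Col1a2 and Col3a1 summed to 4186 CPM and their 10 fibroblast markers to 1668 CPM. Col1a1 and Col1a2 also passed there in the knockout. The part of free RNA or doublets in these calls was not tested.

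The other 15 chains were Col2a1, Col4a3, Col6a4, Col9a1, Col9a2, Col9a3, Col10a1, Col11a2, Col19a1, Col20a1, Col22a1, Col24a1, Col25a1, Col26a1 and Col27a1. They include the cartilage chains of types II, IX and X. None of the 44 was without a UMI in all libraries: Col10a1 had 2 UMIs in the knockout, 0 in the old control and 3 in the young control, and Col22a1 had 4, 2 and 3. Col27a1, a fibrillar chain, is a special case, since the lymphoid cells themselves had 174 CPM in the knockout, 313 in the old control and 106 in the young control, so they are no background for it. Schwann-like cells had 172, 106 and 304 CPM of Col27a1. Col20a1 and Col24a1 passed in Schwann-like cells of the young control alone, at 69.7 and 21.1 CPM.

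**Figure D2:**
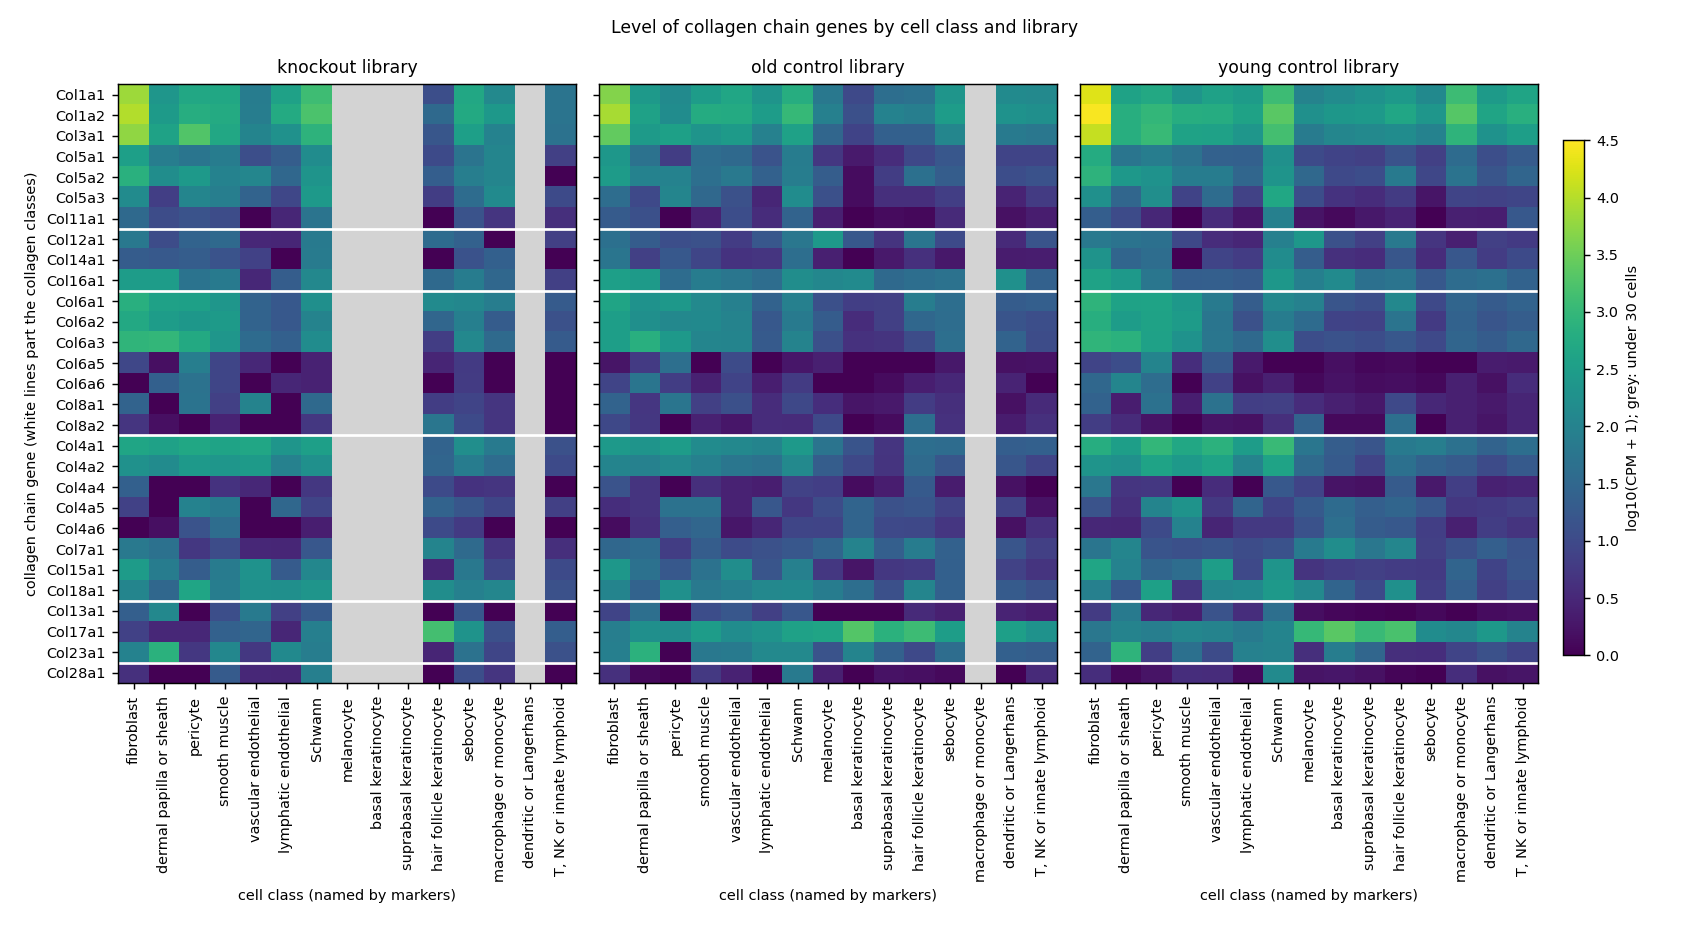
Colour gives the level of the 29 collagen chains above free RNA in at least 2 libraries, as log10(CPM + 1), in each cell class (columns) of the knockout, old control and young control libraries, and grey marks classes with under 30 cells. Col1a1, Col1a2 and Col3a1 are highest in the fibroblast-like column of every library, and Col17a1 in the keratinocyte columns.

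Fibroblast-like cells had 21 chains above free RNA in the knockout, against 5.46% of all features, 19 in the old control, against 6.21%, and 21 in the young control, against 7.28%. Schwann-like cells had 21 chains in the knockout (6.44% of all features), 20 in the old control (6.51%) and 23 in the young control (8.88%). The 10 fibroblast markers summed to 2402, 3671 and 1353 CPM in these Schwann-like cells, none of them at 0, against 134, 740 and 971 CPM in lymphoid cells, and their part in the Schwann levels of the chains was not tested. Pericyte-like cells, the mural cells of small vessels, had 17 in the knockout (4.10% of all features), 12 in the old control (4.42%) and 20 in the young control (7.12%). The depth behind these counts differs between libraries: pericyte-like cells numbered 84 in the knockout, 49 in the old control and 329 in the young control.

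The type I and III chains were far higher in fibroblast-like cells than elsewhere. Col1a1 (chr11:94936224-94953042, plus strand), the first chain of type I collagen, stood at 6968 CPM in knockout, 4599 in old control and 19226 in young control fibroblast-like cells. In Schwann-like cells Col1a1 stood at 1244, 632 and 1210 CPM in that order. In dermal papilla or sheath-like cells it stood at 235 and 271 CPM in the knockout and old control, and at 398 CPM in the young control, which was not above the 423 CPM of the lymphoid cells. Col3a1 (chr1:45311538-45349706, plus strand) was the leading fibrillar chain of pericyte-like cells, where it had 1907 CPM in the knockout, 355 in the old control and 1075 in the young control. Sebocyte-like cells, from cluster 6 in the knockout and cluster 10 in both controls, had Col1a1 at 501 CPM in the knockout, 222 in the old control and 135 in the young control. The 10 fibroblast markers summed to 1283, 1488 and 302 CPM in those sebocyte-like cells, and their part in the Col1a1 level was not tested.

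Schwann-like cells also carried fibrillar chains of the nucleating kind and a chain that was above free RNA in no other class. Col5a3, a type V chain, had 270 CPM in knockout, 153 in old control and 469 in young control Schwann-like cells, above its fibroblast levels of 147, 39.7 and 182 CPM. Col11a1, a type XI chain best known from cartilage, had 52.6, 26.4 and 90.3 CPM there. Col28a1, a chain known from the peripheral nerve, had 87.2, 66.4 and 140 CPM in Schwann-like cells and 3.16, 3.24 and 2.87 CPM in fibroblast-like cells.

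Type IV chains were found in several classes that lie on a basement membrane. Col4a1 had 479 CPM in knockout, 312 in old control and 970 in young control pericyte-like cells. In vascular endothelial-like cells it had 458, 124 and 773 CPM, and in Schwann-like cells 351, 267 and 1111 CPM. In each of these 3 classes the young control was highest and the old control lowest. Vascular endothelial-like and Schwann-like cells came in part from different clusters, whereas pericyte-like cells came from cluster 23 in every library. Col4a5 and Col4a6 are the chains of the smooth muscle and epidermal basement membrane. Col4a5 was above free RNA in pericyte-like cells as well, with 97.6 CPM in the knockout, 49.2 in the old control and 105 in the young control. Col4a5 had 71.1 CPM in the knockout, 49.3 in the old control and 206 in the young control smooth muscle-like cells, which came from cluster 28 in the old control and cluster 14 in the others, and Col4a6 had 39.8, 29.3 and 95.9 CPM. Basal keratinocyte-like cells had Col4a5 at 27 CPM in the old control and 36.4 in the young control, and Col4a6 at 27.4 and 43.0 CPM. The knockout had 12 such cells and gives no value.

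Among the other basement membrane chains, Col18a1, whose cleaved end is endostatin, was highest in pericyte-like cells, with 439 CPM in the knockout, 180 in the old control and 359 in the young control. Col15a1, its relative, had 198, 163 and 317 CPM in vascular endothelial-like cells, below its levels in fibroblast-like cells of the same libraries. Col7a1, the anchoring fibril chain, had 103 and 157 CPM in basal keratinocyte-like cells of the old and young control. In hair follicle keratinocyte-like cells Col7a1 had 107 CPM in the knockout, 76.6 in the old control and 115 in the young control.

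The transmembrane chains were highest in epithelium and follicle mesenchyme. Col17a1, the hemidesmosome collagen that ties basal keratinocytes to the basement membrane, had 1996 CPM in old control and 2231 in young control basal keratinocyte-like cells, and 739 and 1123 CPM in suprabasal ones. Its level in hair follicle keratinocyte-like cells was 1451 CPM in the knockout, 1198 in the old control and 1600 in the young control. Col23a1 (chr11:51289920-51583918, plus strand) was highest in dermal papilla or sheath-like cells, with 742, 779 and 848 CPM in that order. Col13a1 had 124, 43.5 and 71.8 CPM there.

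Other network chains were seen mainly outside the fibroblast-like cells. Col6a5, a type VI chain that can take the place of Col6a3, had 84.3 CPM in knockout, 43.7 in old control and 106 in young control pericyte-like cells, against 7.90, 0.809 and 7.35 CPM in fibroblast-like cells. Its neighbour Col6a6 had 22.8, 56.0 and 112 CPM in dermal papilla or sheath-like cells and 48.8, 5.47 and 40.2 CPM in pericyte-like cells. Col8a2, a type VIII chain, had 56.4, 40.7 and 43.8 CPM in hair follicle keratinocyte-like cells. Its partner Col8a1 was highest not there but in pericyte-like cells, with 51.0, 54.7 and 46.7 CPM, and in vascular endothelial-like cells, with 102 CPM in the knockout, 11.3 in the old control and 49.3 in the young control, where the old value was not above free RNA. Of the FACITs, Col12a1 was highest in melanocyte-like cells, with 270 CPM in the old control and 238 in the young control. The leading genes of the melanocyte-like cluster included Lgr5 and Lhx2, which are on the marker list of hair follicle keratinocytes. After melanocyte, its next score was for basal keratinocyte markers. The part of keratinocyte RNA in its chain levels was not tested.

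In fibroblast-like cells, collagen mRNA as a whole was lower in both the knockout and the old control than in the young control. The 44 chains took 2.71% of the UMIs of these cells in the knockout, 1.86% in the old control and 6.73% in the young control. Col1a1, Col1a2 and Col3a1 together made 81.2%, 83.2% and 90.6% of that. Their sum was 22021 CPM in the knockout and 60999 CPM in the young control, a ratio of 0.361 (95% counting interval 0.357 to 0.365). The other 41 chains summed to 5085 CPM in the knockout and 6347 CPM in the young control, a ratio of 0.801 (0.781 to 0.822). In the old control the 3 leading chains summed to 15494 CPM, a ratio to the young control of 0.254 (0.251 to 0.257), and the other 41 chains to 3131 CPM, a ratio of 0.493 (0.482 to 0.505). The leading 3 chains were thus further from the young control than the remainder in both libraries. Both ratios share the young control, so they are given side by side and not as 2 independent results. The finer subsets described below were mixed differently in each library. The subset led by Cpz and Cdh4, which had the most type I collagen in the young control, held 5 knockout, 170 old control and 1057 young control cells. The part of this mix in the summed levels was not tested.

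A chain was called higher or lower by size alone. It had to average 20 CPM or more over the libraries, its ratio had to reach 2 or fall to 0.5, and the end of the counting interval nearest to 1 had to lie beyond a 1.5-fold difference. The level needed was met by 22 of the 44 chains, so counts below are over those and not over all chains. For the knockout over the young control, 1 chain was called higher, against 5.35% of the 6228 features tested, and 6 were called lower, against 4.01%. With TMM scaling in place of totals, which lowers the median log2 ratio of all features by 0.20, the shares of all features were 3.64% higher and 5.67% lower, and the counts of chains were again 1 and 6. Of the 22 chains, 17 had a ratio below 1, and their median log2 ratio was -0.32, against 0.18 over all features. For the old control over the young control, 1 chain was called higher, against 1.70% of features, and 10 were called lower, against 2.04%. There 18 of 22 ratios were below 1, with a median log2 ratio of -0.995, against 0.04 over all features. Beside these values stand differences in the cells themselves: median UMIs per fibroblast-like cell were 6268 in the knockout, 4148 in the old control and 5515 in the young control, and median mitochondrial shares were 7.35%, 5.97% and 4.58%. Among the fibroblast markers, Dcn had 15034, 28346 and 20591 CPM and Clec3b 450, 1532 and 1722 CPM in that order, whereas Pdgfra had 452, 359 and 443 CPM. The part of these differences in the chain levels was not tested.

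**Figure D3:**
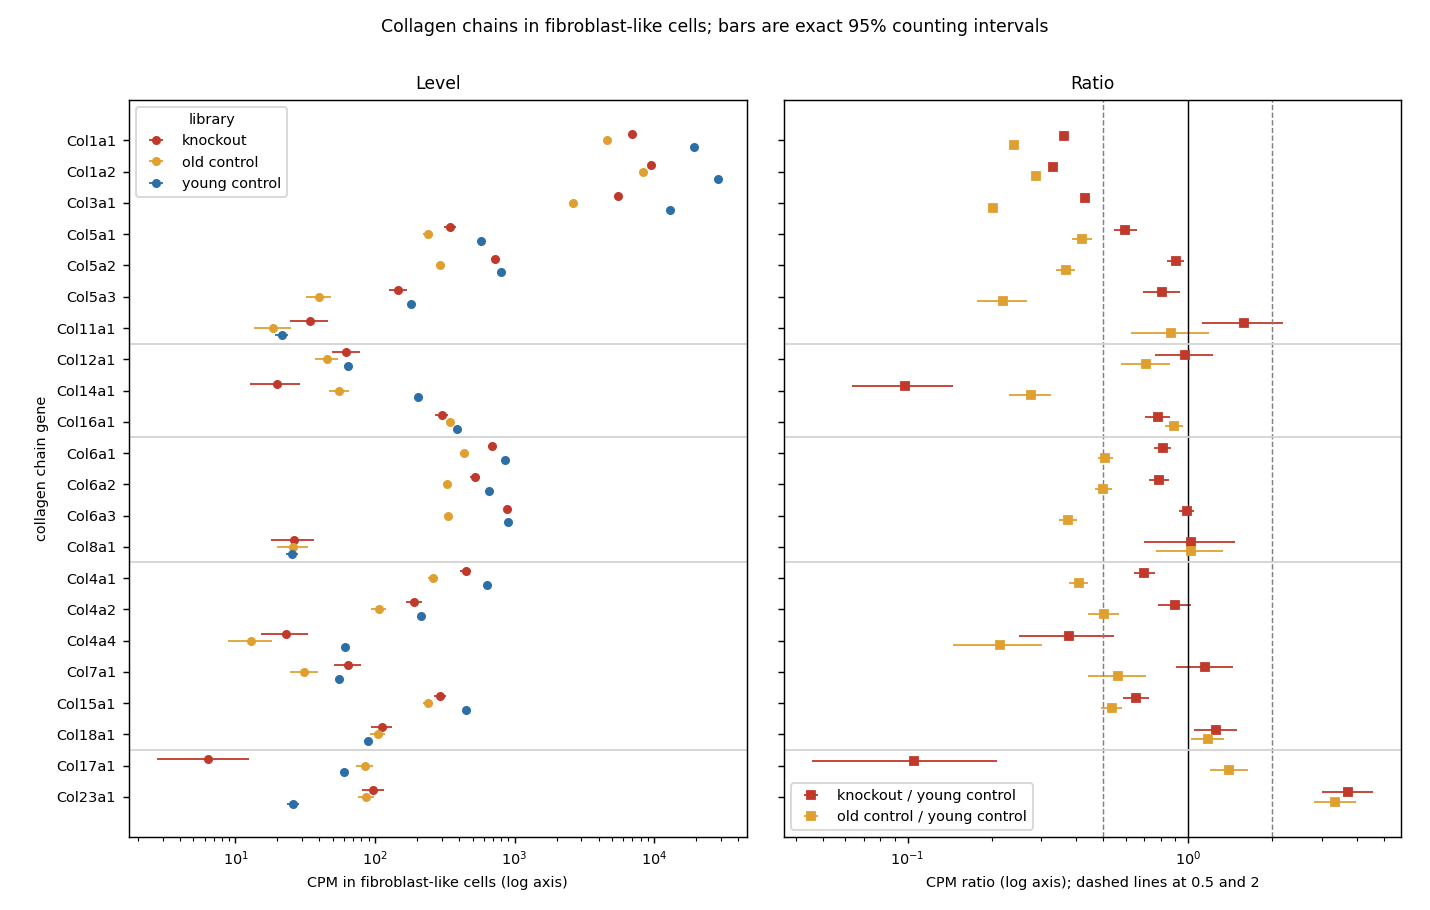
For the 22 collagen chains with a mean of at least 20 CPM in fibroblast-like cells, the left panel gives the level in CPM on a log axis in the knockout, old control and young control libraries, and the right panel the ratio of the knockout and of the old control to the young control on a log axis. Bars are exact 95% counting intervals, and lines part the collagen classes. Col1a1, Col1a2 and Col3a1 lie left of 0.5 in both ratios, Col23a1 lies right of 2, and the Col6a3 ratio is 0.992 for the knockout and 0.374 for the old control.

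Among the fibrillar chains, those of types I and III were lower in the knockout while those of type V were nearer to the young control. Col1a1 at 6968 CPM in the knockout and 19226 CPM in the young control gave a ratio of 0.362 (0.355 to 0.370). Col1a2 had 9497 CPM in the knockout and 28848 CPM in the young control (ratio 0.329), and Col3a1 had 5556 and 12925 CPM (ratio 0.430). The type V chain Col5a2 had 723 CPM in the knockout and 800 CPM in the young control, a ratio of 0.904 (0.844 to 0.967). Col5a1 and Col5a3 had ratios of 0.599 and 0.809, and neither was called. The call of Col3a1 was not met under 3 of the 12 ways of processing tried, among them with doublets kept, where its ratio was 0.595. Col1a1 was not called where each library was clustered alone, with a ratio of 0.519. With single clusters left out, an alternative added after seeing the data, 2 of these calls also fell away. Col3a1 was not called without the Apod and Sfrp5 cluster described below, and Col1a1 was not called without the Mfap4 and Dcn cluster.

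In the old control, type V chains were low as well. Col1a1 had 4599 CPM (ratio to the young control 0.239), Col1a2 8286 CPM (0.287) and Col3a1 2609 CPM (0.202). Where each library was clustered alone, the ratios of Col1a1 and Col3a1 were 0.159 and 0.127. Col5a1 had 241 CPM against 576 CPM in the young control, a ratio of 0.419. Col5a2 had 293 CPM against 800 CPM in the young control, a ratio of 0.366, and Col5a3 had 39.7 CPM against 182 CPM in the young control, a ratio of 0.218. All 7 fibrillar chains tested had a ratio below 1, with a median log2 ratio of -1.80, and 6 were called lower. The chain not called was Col11a1, at 18.6 CPM in the old control and 21.4 CPM in the young control.

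Of the FACITs, Col14a1 (chr15:55307750-55520803, plus strand), which coats mature fibrils, had the lowest knockout ratio of the 22 chains that met the level. Below that level, Col6a6 had 0 UMIs in knockout and 453 (30.3 CPM) in young control fibroblast-like cells, out of 1266141 and 14963932 UMIs of all genes. Of those 453 UMIs, 415 lay in the Gpx3 and Dpt cluster described below, which held 12 knockout cells. Col14a1 had 19.7 CPM in the knockout, 55.4 in the old control and 202 in the young control, which gives ratios of 0.0978 (0.0632 to 0.145) and 0.275 (0.230 to 0.326). At 1500 UMIs per cell, a Col14a1 UMI was seen in 2.72% of knockout, 4.41% of old control and 16.0% of young control fibroblast-like cells, and in 0%, 0.282% and 1.36% of lymphoid cells, where the 0 of 76 knockout cells has an exact upper bound of 4.74%. Unthinned, the fibroblast shares were 5.85%, 6.55% and 31.6%. The subset mix of the young control weights the fibroblast-like clusters described below, not the finer subsets, by their UMIs in the young control. Among them, the Gpx3 and Dpt cluster held only 12 knockout and 29 old control cells. At this mix the Col14a1 ratios were 0.243 in the knockout, which was called, and 0.713 in the old control, which was not. Col12a1 and Col16a1 had ratios of 0.975 and 0.781 in the knockout and 0.708 and 0.893 in the old control. At the subset mix of the young control the old ratio of Col12a1 was 1.26.

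The type VI chains make the beaded filaments around cells. Col6a1 had 690 CPM in the knockout, 431 in the old control and 850 in the young control, and Col6a2 had 520, 329 and 657 CPM. Their knockout ratios were 0.812 and 0.791 and their old ratios 0.508 and 0.50, and none of these was called. Both old ratios lay close to the limit. They were called lower with TMM or median-of-ratios scaling, with free RNA subtracted and with each library clustered alone. They were also called lower with the chains left out of the totals or used in clustering. At the subset mix of the young control they were 0.652 and 0.558 and were not called. Col6a3 had 886 CPM in the knockout, a ratio of 0.992 (0.932 to 1.05) to the 893 CPM of the young control, and 334 CPM in the old control, a ratio of 0.374 (0.348 to 0.401). At the subset mix of the young control the old ratio of Col6a3 was 0.525 and was not called. Col8a1 had 26.1 CPM in the knockout, 25.9 in the old control and 25.3 in the young control, with ratios near 1 whose intervals ran from 0.698 to 1.47 in the knockout and from 0.772 to 1.34 in the old control. At the subset mix of the young control the old ratio of Col8a1 was 2.73.

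Basement membrane chains had ratios on both sides of 1. Col4a4, a chain of the glomerular kind of type IV network, had 22.9 CPM in the knockout, 13 in the old control and 60.8 in the young control, with ratios of 0.377 and 0.213 from 29 and 32 UMIs. Both were called lower, and at 1500 UMIs per cell the knockout ratio was 0.332 and was not called. Col4a1 had 445, 260 and 638 CPM, called lower in the old control only, at 0.407, and at the subset mix of the young control that ratio was 0.565 and was not called. The difference between both ratios was not tested. Col15a1 had 293, 240 and 448 CPM, and Col7a1 had 64.0, 31.2 and 55.5 CPM. Col18a1 had 111, 104 and 88.5 CPM, with ratios of 1.26 (knockout) and 1.18 (old control), which were 0.918 at the subset mix of the young control and 0.879 with each library clustered alone. The knockout ratio of Col7a1 was 1.15, and 0.540 at the subset mix of the young control.

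Col23a1 was the only chain called higher in fibroblast-like cells, in both comparisons. It had 96.4 CPM in the knockout, 86.6 in the old control and 25.8 in the young control, with ratios of 3.74 (3.02 to 4.59) and 3.36 (2.83 to 3.98). Thinned to 1500 UMIs per cell, the knockout ratio was 1.76 and was not called. The 10 markers of dermal papilla or sheath, the class where Col23a1 was highest, summed to 509 CPM in knockout fibroblast-like cells, 180 in the old control and 86.7 in the young control, with 0, 1 and 1 of the 10 at 0. In the dermal papilla or sheath-like cells themselves they summed to 3696, 3546 and 5203 CPM. Their part in the Col23a1 level was not tested. Col17a1 was called lower in the knockout, at 6.32 CPM against 59.8 CPM in the young control. It was not above free RNA in the fibroblast-like cells of any library, since lymphoid cells had 21.3 CPM in the knockout, 193 in the old control and 102 in the young control. With free RNA subtracted, its level was 0 in the knockout and it was not called.

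The fibroblast-like cells fell into 4 clusters that were joint to the libraries. The Mfap4 and Dcn cluster (cluster 1) held 77 knockout, 355 old control and 1408 young control cells, the Gpx3 and Dpt cluster (15) held 12, 29 and 766, the Coch and Fmod cluster (26) held 56, 83 and 237, and the Apod and Sfrp5 cluster (30) held 43, 52 and 187. The young control thus had a larger share of the Gpx3 and Dpt cluster, and 12 knockout cells carry its knockout values. Cluster 37, unnamed for mixed markers, also had Coch and Fmod among its leading genes. Its 79 cells all came from the old control and are not counted here.

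Type I and III chains were below the young control in every cluster, by differing amounts, except that the intervals of Col1a1 in the knockout and young control overlapped in the Gpx3 and Dpt cluster. The knockout over young control ratio of Col1a1 was 0.377 in the Mfap4 and Dcn cluster, 0.560 in the Coch and Fmod cluster, 0.333 in the Apod and Sfrp5 cluster and 0.959 in the Gpx3 and Dpt cluster, where no lower call was met. The old control over young control ratio of Col1a1 was 0.185, 0.342, 0.177 and 0.440 in the same order. For Col3a1 the knockout ratios ran from 0.174 in the Apod and Sfrp5 cluster to 0.617 in the Coch and Fmod cluster, and the old ratios from 0.117 to 0.325.

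Col5a2 and Col6a3 had similar ratios over the clusters. The knockout ratio of Col5a2 was 1.07 in the Mfap4 and Dcn cluster, 1.04 in the Gpx3 and Dpt cluster and 1.18 in the Coch and Fmod cluster, against 0.387 in the Apod and Sfrp5 cluster. That of Col6a3 was 1.02, 0.810, 1.02 and 0.370 in the same order. Both chains were thus nearest to the young control in the first 3 clusters and far below it in the last. In the old control, Col5a2 ranged from 0.25 to 0.596 and Col6a3 from 0.349 to 0.659.

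Col14a1 was concentrated in the Gpx3 and Dpt cluster, with 120 CPM in the knockout, 364 in the old control and 479 in the young control. Its knockout ratio was below 0.3 in all 4 clusters, from 0.0466 to 0.293, from 1 to 13 UMIs a cluster. Its old ratio was 0.30 in the Mfap4 and Dcn cluster and 0.175 in the Apod and Sfrp5 cluster, and 0.760 and 0.792 in the other two. Col11a1 was highest in the Coch and Fmod cluster, with 92.9 CPM in the knockout, 108 in the old control and 216 in the young control, so that the knockout lay below the young control there, whereas its ratio over all fibroblast-like cells was 1.59. That ratio was 0 with each library clustered alone, 0.432 at the subset mix of the young control, 2.56 with free RNA subtracted and 3.13 without cluster 26. Col23a1 was highest in the Coch and Fmod cluster, at 135, 303 and 118 CPM. Its knockout ratio was 4.71 in the Mfap4 and Dcn cluster and 1.15 in the Coch and Fmod cluster, and its old ratio was 2.59 and 2.57 in these and 0.985 in the Apod and Sfrp5 cluster.

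**Figure D4:**
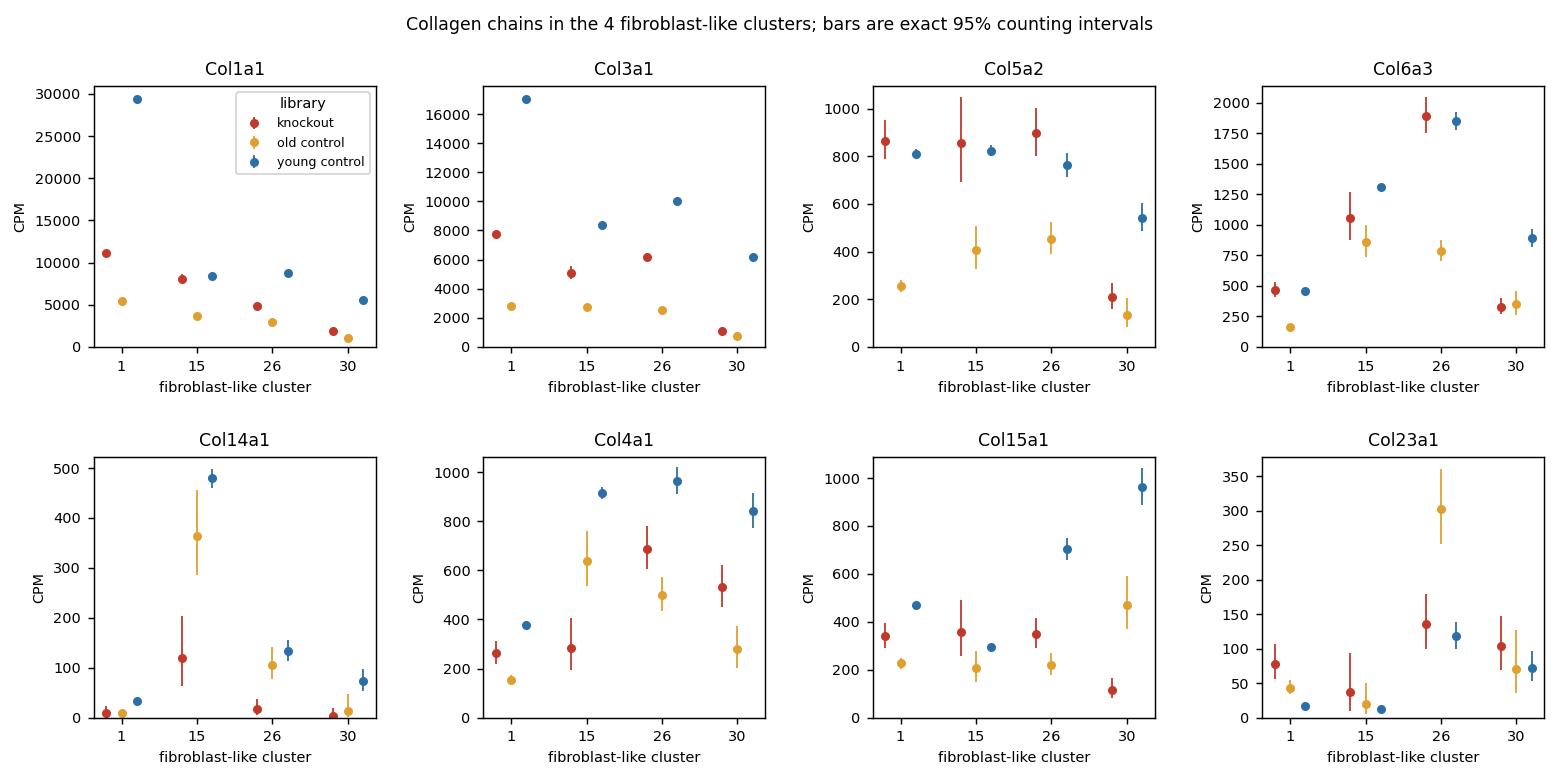
Level in CPM of 8 collagen chains in the 4 fibroblast-like clusters (1, the Mfap4 and Dcn cluster; 15, the Gpx3 and Dpt cluster; 26, the Coch and Fmod cluster; 30, the Apod and Sfrp5 cluster), for the knockout, old control and young control libraries, with exact 95% counting intervals. The old control lies below the young control for Col1a1, Col3a1, Col5a2 and Col6a3 in every cluster, and the knockout lies on the young control for Col6a3 in clusters 1 and 26, at ratios of 1.02.

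Within the young control, whose 2598 fibroblast-like cells allow a finer split, subsets differed in the levels of the chains. Not every subset is described here, and the one led by Gpx3 and Cxcl12 (623 cells) is left out. The subset led by Cpz and Cdh4 (1057 cells) had the most type I collagen, with Col1a1 at 32110 CPM. It also had the highest Col16a1, at 618 CPM, with Col3a1 at 17089 CPM, Col5a2 at 780 CPM and Col6a3 at 345 CPM. The papillary-like subset led by Igfbp2 and F13a1 (112 cells) had Col1a1 at 29742 CPM, Col3a1 at 28514 CPM, Col7a1 at 458 CPM and Col23a1 at 132 CPM. In the other subsets shown Col7a1 was at 9.15 to 141 CPM. The subset led by Plac8 and Hmcn2 (293 cells), 1 of the 2 named from Gpx3 and C3, had the highest Col14a1, at 783 CPM, with Col6a3 at 2251 CPM, Col4a4 at 203 CPM and Col6a6 at 165 CPM. The Coch and elastin-like subset (324 cells) had Col11a1 at 157 CPM, against 0 to 22 CPM elsewhere. The unnamed subset led by Sfrp5 and Itgb4 (163 cells) had the least type I collagen, with Col1a1 at 4797 CPM, and the most Col18a1, at 250 CPM, and Col8a1, at 134 CPM.

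Only some subsets could be set across libraries, since others were nearly absent from 1 or 2 of them, as the Cpz and Cdh4 subset with 5 knockout cells. In the Coch and elastin-like subset (40 knockout, 89 old control and 324 young control cells), Col1a1 had 4207 CPM in the knockout, 2973 in the old control and 11830 in the young control. Col6a3 had 1469, 635 and 1258 CPM there, and Col11a1 132, 93.5 and 157 CPM. In the Sfrp5 and Itgb4 subset (40, 46 and 163 cells), Col3a1 had 1007, 747 and 5891 CPM and Col15a1 122, 491 and 991 CPM. The order of libraries was the same for Col1a1 here as in the pooled cells.

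**Figure D5:**
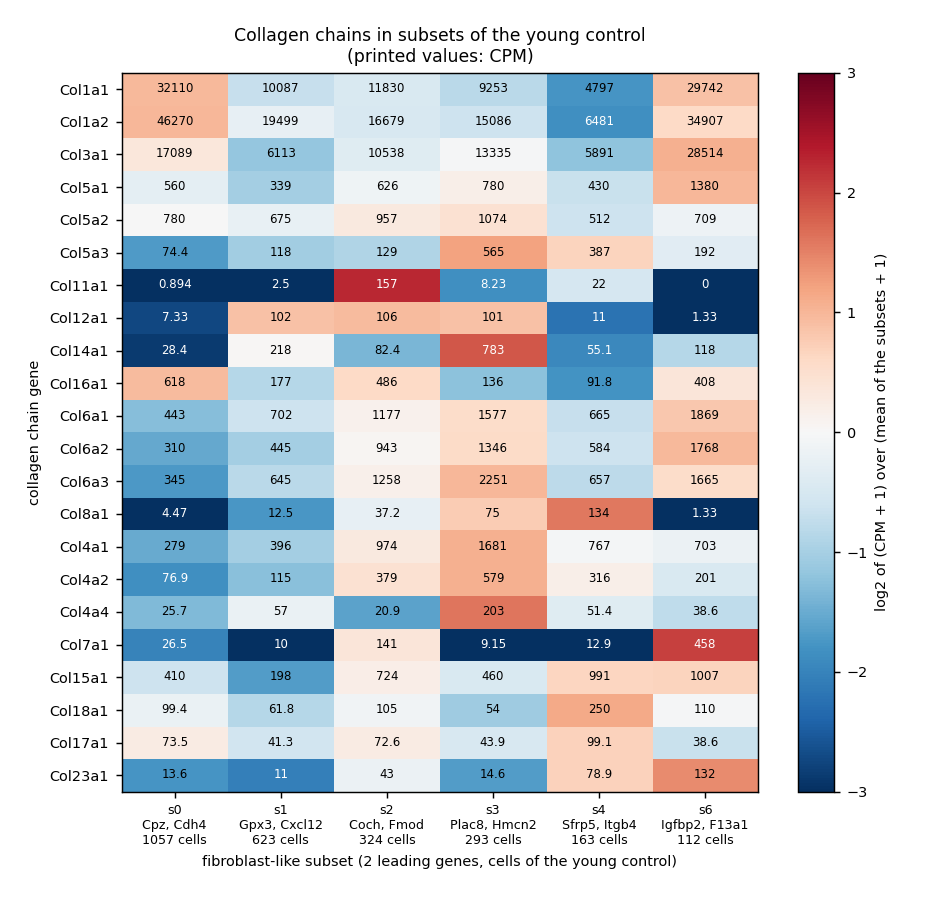
Level in CPM, printed and coloured, of collagen chains (rows) in the subsets of fibroblast-like cells of the young control (columns, named by their 2 leading genes). Col11a1 is highest in the Coch and Fmod subset at 157 CPM, Col14a1 in the Plac8 and Hmcn2 subset at 783 CPM and Col7a1 in the Igfbp2 and F13a1 subset at 458 CPM.

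Chains that share a trimer were compared as ratios of their UMIs. Reads at the 3' end do not scale with transcript length, but capture may differ between genes. A ratio is therefore compared between libraries and classes only. Col1a1 over Col1a2, which meet as 2 to 1 in type I collagen, was 0.734 in knockout, 0.555 in old control and 0.666 in young control fibroblast-like cells. Col6a1 over Col6a2 was 1.33, 1.31 and 1.29, nearly the same in all 3 libraries, while Col6a3 over Col6a1 was 1.28, 0.775 and 1.05. In dermal papilla or sheath-like cells Col6a3 over Col6a1 was 2.50, 3.49 and 1.90. Col5a1 over Col5a2 was 0.477, 0.823 and 0.720 in fibroblast-like cells. Col3a1 over Col1a1 was 0.797, 0.567 and 0.672 in fibroblast-like cells and 3.81 and 2.05 in pericyte-like cells of the knockout and young control.

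Col4a1 over Col4a2, whose starts overlap as printed above, was 2.33 in knockout, 2.43 in old control and 3.0 in young control fibroblast-like cells. Over all classes in which both chains were above free RNA, it ran from 1.23 in old control hair follicle keratinocyte-like cells to 3.07 in young control lymphatic endothelial-like cells. Col4a5 over Col4a6 was 1.79, 1.68 and 2.15 in smooth muscle-like cells and 0.986 and 0.846 in basal keratinocyte-like cells of the old and young control.

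Genes that fold, export, cross-link, bind or degrade collagen were counted by list, by the same size rule and against the same shares of all features: 5.35% higher and 4.01% lower in the knockout, 1.70% higher and 2.04% lower in the old control. Of 14 tested genes for folding and for hydroxylation of proline or lysine, none was called in either comparison, and their median log2 ratio was 0.04 (knockout) and -0.13 (old control). Serpinh1, the collagen chaperone HSP47, had 1421 CPM in the knockout, 884 in the old control and 1385 in the young control, with ratios of 1.03 and 0.638. In the export and cleavage list (8 tested), Pcolce2, an enhancer of C-propeptide cleavage, was called lower in the knockout (296 against 833 CPM, ratio 0.356), and Adamts2, which removes the N-propeptide, in the old control (374 against 931 CPM, ratio 0.402). Lox, the lysyl oxidase that cross-links fibrils, was called lower in both, with 115 CPM in the knockout, 124 in the old control and 341 in the young control. It was 1 of 3 tested cross-linking genes, all with ratios below 1, whose median log2 ratio was -0.61 (knockout) and -0.74 (old control). The export and cleavage list had medians of -0.38 and -0.32. Of 5 tested receptors, Itga11, the fibroblast integrin for type I collagen, was called lower in the knockout (11.8 against 38 CPM), and none was called in the old control. None of 7 tested degradation genes was called in either.

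Of 11 tested proteoglycans and glycoproteins that bind fibrils, 4 were called lower in the knockout, against 4.01% of all features. Sparc, a collagen-binding glycoprotein, had 3848 CPM in the knockout, 3110 in the old control and 11171 in the young control, and was called lower in both comparisons. Dpt, which binds decorin and fibrils and is also 1 of the 10 fibroblast markers, had 643, 776 and 2098 CPM and was also called lower in both. Fn1, fibronectin, had a ratio of 0.311 and Ogn, osteoglycin, of 0.433 in the knockout. In the old control, where 1.70% of all features were called higher, 2 genes of this list were, Fmod, fibromodulin, with 236 CPM against 69.4 CPM in the young control (ratio 3.40), and Thbs4, a thrombospondin, with 202 against 96.6 CPM (ratio 2.09). The cluster led by Coch and Fmod held 83 of 519 old control and 237 of 2598 young control fibroblast-like cells, and the part of this mix in the Fmod level was not tested.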

How the data were processed

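The authors deposited raw UMI counts for every gene in every barcode, from 10x 3' v3.1 libraries per the labels' protocols, and the file headers name Cell Ranger 3.1.0 as their source. Per the submitters' processing notes, the build was mm10 and Seurat 3.1.5 was used. The way barcodes were selected before deposit is not given in these sources. A barcode was kept with 500 genes or more, 1000 UMIs or more and no more than 15% of UMIs from mitochondrial genes. Scrublet's automatic threshold marked 0% (knockout), 0.0166% (old control) and 2.99% (young control) of cells and had not worked, so the 8% with the highest scores were removed per library. Libraries shared 318, 328 and 257 barcodes with another library, in that order.

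The 3 libraries were clustered together with scanpy 1.11.5 (2000 variable genes without collagen chains, 30 components, Leiden resolution 1). Clusters were named by marker lists, with thresholds chosen after cluster tables were seen, and a class needed 30 cells in a library to be reported. UMIs were summed per library and class and given as CPM with exact Poisson 95% intervals; ratios have exact intervals of the binomial split. No test was made, since each group is 1 library. Full values are given for chains with a mean of at least 20 CPM in fibroblast-like cells and for chains above free RNA in a class in at least 2 libraries. Genes outside the chains come from lists of collagen processing genes, by the size rule. The size rule was tested on simulated data. The members and lists were chosen with earlier results of these data known. Alternatives were TMM (edgeR 4.0.16) and median-of-ratios (DESeq2 1.42.0) scaling, other filters, clusterings, thinning, subtraction of free RNA and the subset mix of the young control. That mix is of the fibroblast-like clusters, not of the finer subsets. Added after seeing the data was each fibroblast-like cluster alone or left out. Coordinates were taken from GENCODE M21 (GRCm38) and count from 1.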

Additional observations from a re-analysis of the deposited data

Results flagged for a closer look

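Col17a1 had opposite differences between the old and the young control in 2 classes. In sebocyte-like cells it had 315 CPM in the old control and 151 CPM in the young control, a ratio of 2.09. In melanocyte-like cells it had 421 CPM in the old control and 1036 CPM in the young control, a ratio of 0.406. Keratinocyte markers were among the leading genes of that cluster, as given above, and their part in this ratio was not tested. The difference between both ratios was not tested, as each value comes from 1 library. In the lymphoid cells of the same libraries, Col17a1 had 193 CPM in the old control and 102 CPM in the young control.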

How the results depend on the processing

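The chains called by size in fibroblast-like cells were recounted under each alternative. The 1 chain called higher in the knockout became 3 with a mean of at least 5 CPM, where 5.51% of all features were called higher. It became 4 with no filter on low counts (2.41% of all features) and 2 with free RNA subtracted (5.35%). In alternatives chosen after seeing the data it became 3 in cluster 1 alone (4.82% of all features) and 2 leaving out cluster 1 (6.58%). It became 0 in cluster 15 alone (3.31%) and in cluster 30 alone (3.125%). In 2 settings the count stayed at 1 but the chain was not Col23a1. It was Col27a1 with cells thinned to 1500 UMIs (3.52% of all features) and Col13a1 in cluster 26 alone (1.70%). The 6 called lower became 12 in cluster 30 alone, where 4.13% of all features were. They became 4 in cluster 1 alone and in cluster 26 alone, where 3.05% and 2.32% of all features were. The 4 of cluster 26 held no type I or III chain. In cluster 15 alone the count was again 6 (2.03% of all features), but only Col14a1 was shared with the main calls. Under changes of scaling, filter or clustering the 6 called lower became 5 to 8. The share of all features called lower there ran from 1.57% with no filter on low counts to 5.67% with TMM scaling. For the old control, the 1 called higher became 2 with each library clustered alone (4.82% of all features) and 2 at the subset mix of the young control (1.48%). It became 0 in cluster 30 alone (0.985% of all features), where the Col23a1 ratio reversed to 0.985. In cluster 15 alone the 1 chain called higher was Col8a1 in place of Col23a1 (1.90% of all features). The 10 called lower became 3 in cluster 15 alone, where 1.26% of all features were, and were 8 to 14 under the same changes. The share of all features called lower under those changes ran from 0.937% with no filter on low counts to 4.60% with each library clustered alone. The cause of these moves was not tested. TMM scaling moved the median log2 ratio of all features by -0.20 (knockout) and -0.11 (old control). The 29 chains above free RNA were 26 with a floor of 50 CPM and 28 with doublets kept. No paired analysis was possible because each group has 1 library. For the same reason no replicate could be left out. Clusters 15 and 30 hold 12 and 43 knockout cells, so single chains there rest on few UMIs.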

Other observations

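Cells of clusters that no marker list named held 30.4% of the chain UMIs in the knockout, 23.0% in the old control and 2.21% in the young control. A subset of 63 fibroblast-like cells led by Lrrtm3 and Pgr came from the knockout library alone, and a subset led by Dct and Rxfp1 held 7 knockout, 177 old control and 7 young control cells. Chain levels of these subsets are not set against other libraries, since the young control has 0 and 7 such cells.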
